A study of Mus musculus with 2 samples.

Results

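The cytosolic ribosomal protein genes of 2 mouse cell types were compared in the RNA-Seq counts of the series. A row of the count table was taken as a member when its gene symbol began with *Rps* or *Rpl* followed by a number, or was *Rpsa*, *Rplp0*, *Rplp1* or *Rplp2*. The S6 kinases and rows named as pseudogenes were left out. The rule found 88 of 24421 rows, of which 35 carry a small subunit name and 53 a large subunit name. By annotation known beforehand, 77 of them are core ribosomal proteins (31 small, 46 large). The other 11 are paralogs, retrogenes or a binding protein that shares the prefix.

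The study examined gene regulation in cartilage, and its RNA-Seq set consisted of 1 library of primary chondrocytes and 1 library of primary dermal fibroblasts. The chondrocytes were released by collagenase from the rib cartilage of newborn mice and kept for at most 2 passages. The fibroblasts came from the dorsal skin of newborn mice and served as the control cell type. The labels name neither a treatment nor an altered allele for either library, and the strain and the number of animals behind each are not given in the sources used here. The deposited values were whole-number counts of 75 bp reads per gene, 18788599 in chondrocytes and 17563724 in dermal fibroblasts. All 8 chondrocyte marker genes were over 2-fold higher in the chondrocyte library, and 7 of 8 fibroblast markers were over 2-fold higher in the fibroblast library, the exception being *Lum* at 3191 and 2881 counts. Keratinocyte markers summed to 20.5 scaled CPM (library-scaled counts) in chondrocytes and 296 in dermal fibroblasts, skeletal muscle markers to 1860 and 1300, macrophage markers to 107 and 169, and endothelial markers to 14.3 and 51.1. Of the 6 erythroid markers, 4 were at 0 in both libraries. The part of these other cells in the values below was not tested. In bulk samples such as these, fewer cells of a type and less RNA per cell cannot be told apart.

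The ribosome translates mRNA into protein. Its small subunit, the 40S, reads the message, and its large subunit, the 60S, joins the amino acids and releases the growing chain through an exit tunnel. Most core ribosomal proteins are needed in about equal number. Most ribosomal protein mRNAs begin with a 5′ terminal oligopyrimidine (TOP) tract, a cytosine followed by a run of pyrimidines. Through this tract the mTOR pathway controls their translation. Cartilage is of interest because some ribosomal protein mutations disturb the skeleton: loss of 1 copy of *Rpl38* patterns the mouse axial skeleton wrongly, and Diamond-Blackfan anemia, caused by mutated ribosomal protein genes, can include skeletal malformations.

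The TOP tract is the sequence feature that members of both subunits share at the start of their mRNAs, and 7 windows of 30 bases around an annotated transcription start are shown for genes that the results below name or that carry long tracts. They are RefSeq sequences of GRCm38.p6, the same build as the mm10 mapping, read 5′ to 3′ on the strand of the gene, with 15 bases before the start base. Capitals mark the tract, taken as a C followed by at least 4 letters that are each C or T, whose first base lies within 5 bases of the annotated start. The S6 kinase target *Rps6* (minus strand, chr4:86857353-86857382), the stalk protein *Rplp2* (plus strand, chr7:141447636-141447665), *Rps18* (minus strand, chr17:33955651-33955680), *Rpl7a* (plus strand, chr2:26910792-26910821) and *Rpl38* (plus strand, chr11:114668565-114668594) carry long tracts. The exit tunnel protein *Rpl39* (minus strand, chrX:37085208-37085237) and its paralog *Rpl39l* (plus strand, chr16:10170213-10170242) are shown because their counts differ most in pattern. The windows with long tracts were picked for their tract. Those of *Rpl7a*, *Rpl38* and *Rpl39l* lie around a start inside the gene and not at its outermost base. Any other annotated start of these genes is not shown.
Rps6: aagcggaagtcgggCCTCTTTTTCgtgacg
Rplp2: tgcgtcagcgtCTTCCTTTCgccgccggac
Rps18: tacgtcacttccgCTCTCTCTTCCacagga
Rpl7a: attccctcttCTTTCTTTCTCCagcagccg
Rpl38: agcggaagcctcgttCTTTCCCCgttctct
Rpl39: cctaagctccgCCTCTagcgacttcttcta
Rpl39l: ctcccaggcctttccggatttccggtggtc

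The tract was 10 bases long in *Rps6*, 9 in *Rplp2*, 11 in *Rps18*, 12 in *Rpl7a*, 8 in *Rpl38* and 5 in *Rpl39*. In *Rpl7a* the tract is part of a longer pyrimidine run, counted only from the first C within 5 bases of the start. No tract that met the rule was found in the *Rpl39l* window. A pyrimidine run led by C, longer than the *Rpl39* tract, ends just before its start base. No C of this run within 5 bases of the start is followed by 4 or more pyrimidines, so the rule left it out. Promoter sequences were at hand for 57 of the 77 core members, with 67 annotated starts. A tract was found at 29 of these 67 starts (43.3%), against 18.3% of the 32851 starts of all genes in the table. A tract of 8 or more bases was found at 20 of the 67 (29.9%), against 4.37% of all starts. On the opposite strand the same search gave 14.9% of the members' starts and 21.4% of all starts, so the excess lay on the strand of the gene. A match is a description of these letters and not a measured start site.

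The counts were scaled with edgeR trimmed mean of M values (TMM) factors, under which the median log2 fold of the 11811 genes with at least 100 counts over both libraries was 0.00. Folds are given as chondrocytes over dermal fibroblasts, and a 95% interval covers counting error only. With 1 library per cell type no difference has a replicate check, so no p-value is given.

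Ribosomal protein mRNAs took nearly the same share of both libraries. The 88 rows summed to 1099377 counts in chondrocytes, 5.85% of the library, and to 1023484 counts in dermal fibroblasts, 5.83% of the library. The exact 95% binomial intervals were 5.841% to 5.862% and 5.816% to 5.838%. After TMM scaling the sum was 1.10-fold higher in chondrocytes, a log2 fold of 0.142 (0.138 to 0.146). Scaling by total counts moves every log2 fold, and with them the median of all genes, by -0.136, which puts this sum at 0.006. Scaling by *Actb* moves them the other way, by 0.122. The sign of a member whose log2 fold is near 0, on either side, therefore depends on the scaling, while the distances between members do not. Members held 23 of the 100 most abundant rows in chondrocytes and 20 of 100 in dermal fibroblasts.

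The members lay closer together than other genes. Of the 88 rows, 81 had at least 100 counts over both libraries. Of these 81, 64 lay within 1.2-fold between the cell types, against 34.2% of all 11811 genes and 39.7% of the 537 genes with at least 10000 counts. No member was over 1.5-fold higher in chondrocytes, against 16.9% of all genes and 15.3% of the abundant genes. Only *Rpl39l* was over 1.5-fold higher in dermal fibroblasts, against 21.8% and 23.8%. A fold above 1 was found for 71 of 81 members, against 50.2% and 56.2%, but for 41 of 81 with total counts. The 73 core members that passed the count filter had a median log2 fold of 0.13, quartiles of 0.07 and 0.22 and a standard deviation of 0.12 across genes. The quartiles of all genes were -0.48 and 0.38. The widest core values were -0.22 for *Rps19* and 0.38 for *Rps25*.

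**Figure D1:**
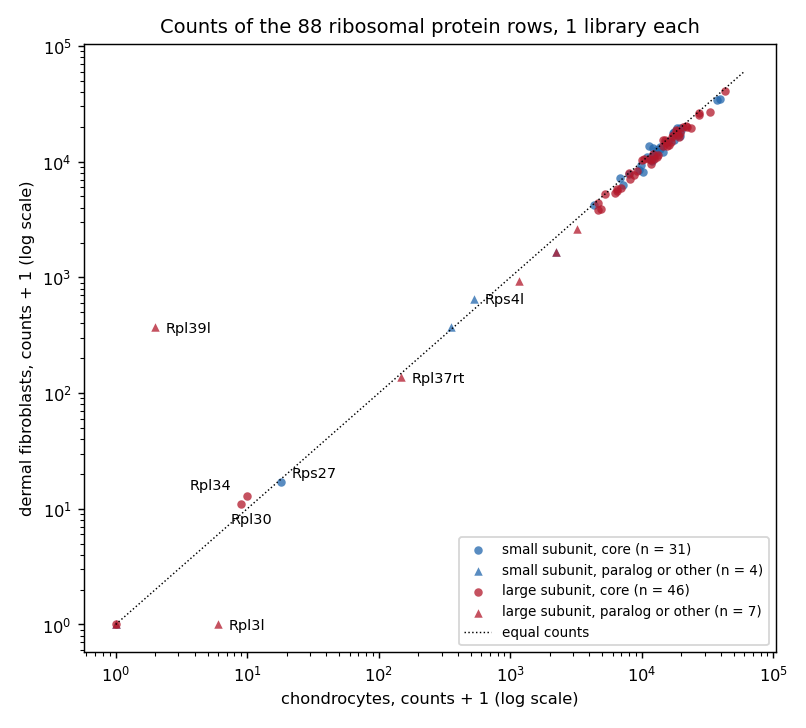
Counts plus 1 of all 88 ribosomal protein rows in chondrocytes (x axis) and dermal fibroblasts (y axis), both on log scales and not scaled for library size, with the small subunit in blue, the large subunit in red, core members as circles and other members as triangles. The core members with at least 100 counts run along the line of equal counts from 3817 to 43103 counts, *Rpl39l* stands alone at 1 and 368 counts, and a few core rows lie near 0 in both libraries.

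The spread between members was small but larger than counting error. Across the 73 core members, log2 counts in the 2 libraries had a Pearson correlation of 0.988 and counts a Spearman correlation of 0.9825, as a description over genes that share both libraries. Counts ran from 4328 to 43103 with a median of 13633 in chondrocytes, and from 3817 to 40895 with a median of 13109 in dermal fibroblasts. The counting interval held the fold of the summed counts for 11 of the 73 members. It lay wholly above that fold for 32 members (10 small, 22 large) and wholly below it for 30 members (14 small, 16 large). A spread beyond counting error was not particular to the members. Over all 11811 genes, the interval lay wholly above a fold of 1 for 4459 and wholly below it for 4501. The log2 fold was only weakly related to coding length over 71 core members (Pearson r = 0.109, Spearman rho = 0.0859).

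The large subunit stood slightly higher in chondrocytes than the small subunit. Small subunit rows summed to 453200 counts in chondrocytes (2.41% of the library) and 428772 in dermal fibroblasts (2.44%), a log2 fold of 0.118 (0.112 to 0.125). Large subunit rows summed to 646177 counts (3.44%) and 594712 counts (3.39%), a log2 fold of 0.158 (0.153 to 0.163). With total counts the small subunit sum turned to -0.017, and the large subunit sum stayed positive at 0.022. The ratio of small to large subunit counts needs no scaling between libraries. It was 0.7014 in chondrocytes (0.6987 to 0.704) and 0.721 in dermal fibroblasts (0.7181 to 0.7238), 1.028 times higher in the fibroblasts (1.022 to 1.034 by counting error). The median log2 fold was 0.11 over 30 core small subunit members and 0.17 over 43 core large subunit members. The ranges of both subunits overlapped over most of their length, as the ranked folds show.

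**Figure D2:**
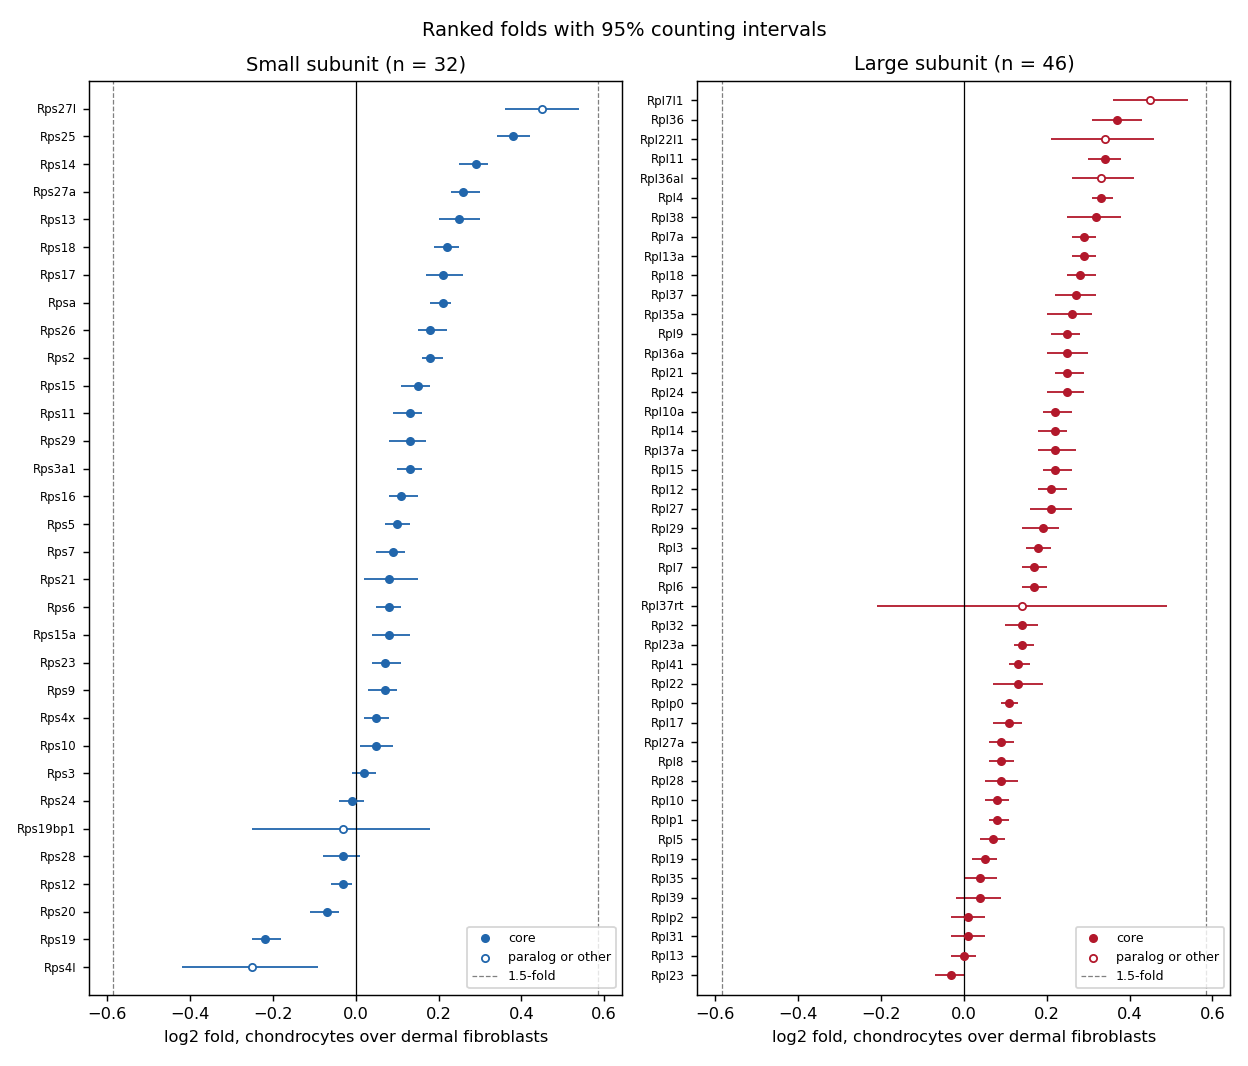
Log2 fold of members with at least 100 counts (x axis; chondrocytes over dermal fibroblasts), ranked within the small subunit (32 members shown) and the large subunit (46 members shown; *Rpl39l* is left out because it lies at -6.90, and members whose values are not reported here are not drawn). Bars are 95% counting intervals, filled points are core members, open points are the others, and dashed lines mark 1.5-fold, which no member shown reaches.

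*Rps19*, a protein of the 40S head that is needed to mature the rRNA of the small subunit and is often mutated in Diamond-Blackfan anemia, had the lowest fold of all core members. It lies at chr7:24884592-24889811. It had 11389 chondrocyte and 13584 fibroblast counts, a fold of 0.861 (0.84 to 0.883). *Rps20* followed with 12126 and 13109 counts and a fold of 0.95. *Rps12*, which has the most counts of the head list, had 18420 and 19377 counts and a fold of 0.976, and *Rps28* had 6846 and 7202 counts and the same fold. These 4 were the lowest core genes of the small subunit. Total count scaling takes their folds lower, while *Actb* scaling turns the log2 folds of *Rps12* and *Rps28* to 0.09 and that of *Rps20* to 0.05 and leaves *Rps19* at -0.09.

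*Rps25*, also a protein of the 40S head and known for its role in internal initiation on some viral RNAs, had the highest core fold. It lies at chr9:44407714-44410406. It had 10257 chondrocyte and 8101 fibroblast counts, a fold of 1.30 (1.26 to 1.34). *Rps14*, whose loss underlies the anemia of the 5q deletion, had 14373 and 12089 counts (1.22-fold). *Rps27a*, which is made as a fusion with ubiquitin, had 11953 and 10221 counts (a log2 fold of 0.26). The head of the 40S thus held both ends of the range. Its 14 members had a median log2 fold of 0.11 with an SD of 0.15, and the 16 other core members of the small subunit with enough counts had the same median with an SD of 0.09.

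The lowest core folds of the large subunit were close to 1. *Rpl23* had 14504 chondrocyte and 15250 fibroblast counts, a fold of 0.977 (0.955 to 0.999). *Rpl13* had 15107 and 15522 counts, and *Rpl31* had 10077 and 10294. The intervals of the last pair held a fold of 1. At the other end, *Rpl36* had 4867 and 3863 counts and a fold of 1.29 (1.24 to 1.35). *Rpl4*, which lines the inner part of the exit tunnel, had 33185 and 27030 counts and a fold of 1.26 (1.24 to 1.28).

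*Rpl38*, the gene tied to axial skeleton patterning through the translation of Hox mRNAs, was among the higher members. It lies at chr11:114667818-114672333. It had 4627 chondrocyte and 3817 fibroblast counts, a fold of 1.25 (1.19 to 1.30). Per length it stood at 1210 scaled CPM per kb of coding sequence in chondrocytes and 973 in dermal fibroblasts, where the lower quartiles of the core members were 1210 and 1080.

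The 3 stalk proteins recruit the GTPases of translation to the 60S. *Rplp0*, the base of the stalk, had the most counts of all members in both libraries, with 43103 chondrocyte and 40895 fibroblast counts (1.08-fold; chr5:115559467-115563729). *Rplp1* had 26967 and 26118 counts (1.06-fold). *Rplp2* had 10351 and 10582 counts, and the interval of its fold held 1 (0.978 to 1.03). *Rplp1* and *Rplp2* bind the base together as dimers. Their scaled counts per length differed over 2-fold. *Rplp1* and *Rplp2* stood at 4360 and 1660 scaled CPM per kb of coding sequence in chondrocytes and at 4110 and 1650 in dermal fibroblasts. How reads with several matches were counted is not given, so this is not read as a difference in mRNA level.

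*Rpl5* and *Rpl11* form a particle with 5S rRNA, which enters the 60S and, when free, binds MDM2. Their folds differed. *Rpl5* had 17279 and 16871 counts, a fold of 1.05 (1.03 to 1.07). *Rpl11* had 11715 and 9486 counts, a fold of 1.27 (1.23 to 1.30), and the intervals of the pair did not overlap.

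The members known for roles in control or outside the ribosome lay within 1.2-fold for 4 of 6 genes, against 61 of the 73 core members. The log2 folds of these 6 had an SD of 0.19, against 0.12. *Rps6*, the target of the S6 kinases, had 18383 chondrocyte and 17855 fibroblast counts (1.06-fold). *Rps3*, which also acts in DNA repair, had 17703 and 17985 counts (1.01-fold). *Rpl13a*, which leaves the ribosome to silence inflammatory mRNAs, had 23493 and 19727 counts (1.22-fold). *Rpsa*, also known as the laminin receptor, had 39305 and 35019 counts (1.15-fold). *Rps19* and *Rps27a* are described above. *Rps2*, which has the third most counts, had 37407 and 33815 counts (1.14-fold). *Rps3a1* had 19964 and 18694 counts (1.10-fold), and *Rpl41*, which encodes the smallest ribosomal protein, had 27141 and 25399 counts (1.10-fold).

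A list of 8 proteins near the mouth of the exit tunnel was also described, which does not hold *Rpl4* (log2 fold 0.33). The 7 of them that passed the count filter had a median log2 fold of 0.05 and an SD of 0.05, against 0.13 and 0.12 for all core members. *Rpl23a* had 21676 and 20143 counts, *Rpl19* 18507 and 18320, and *Rpl17* 14418 and 13743. The 16 Diamond-Blackfan genes with enough counts had a median log2 fold of 0.11, and their 3 most abundant members were *Rps24* (17231 and 17801 counts), *Rpl5* and *Rpl15* (15973 and 14060 counts).

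Scaled counts per coding length were not equal between members, although most of their proteins are used in about equal number. Scaled CPM were divided by coding length for the 71 core members with a coding sequence and enough counts. For 48 of these 71, over 70% of the 75 base coding windows have an exact copy elsewhere in the genome. How reads with several matches were counted is not given, so differences between members are not read as differences in mRNA level. Small subunit members had a median of 1510 scaled CPM per kb in chondrocytes (949 to 3220) and 1440 in dermal fibroblasts (801 to 2950). Large subunit members had a median of 1340 (667 to 4360) and 1180 (611 to 4110). *Rplp1* was the highest in both libraries and *Rpl22* the lowest. The plot of levels per length gives the members in both libraries.

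**Figure D3:**
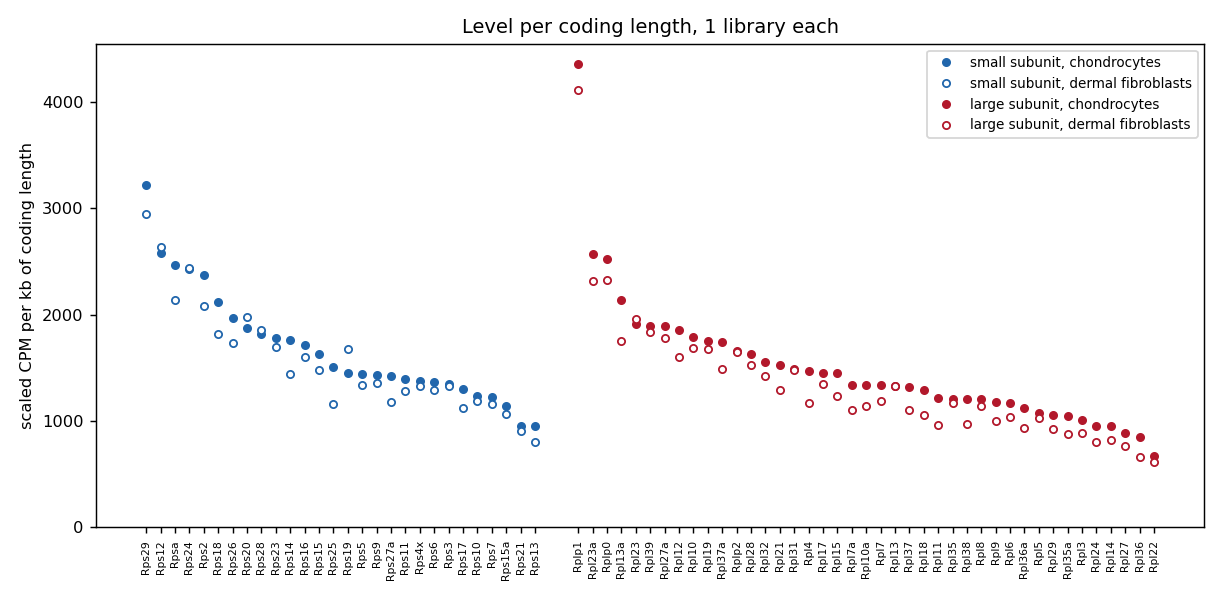
Level of 69 core members in scaled CPM per kb of coding length (y axis), ordered by the chondrocyte level within the small subunit (blue, 28 members) and the large subunit (red, 41 members); filled points are chondrocytes and open points dermal fibroblasts, 1 library each, and members whose values are not reported here are not drawn. *Rplp1* stands highest at 4360 and 4110 and *Rpl22* lowest at 667 and 611.

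*Rpl39l* was the member that set the 2 cell types apart. It is a paralog of *Rpl39*, a short protein of the exit tunnel, and is best known from the male germline. *Rpl39l* lies at chr16:10170197-10174911 and *Rpl39* at chrX:37082518-37085222. *Rpl39l* had 1 count in chondrocytes and 368 counts in dermal fibroblasts. The scaled ratio was 358, with a counting interval from 63.9 to 14200, and setting the single count to the floor of 3 gave 119. Of the 11811 genes with at least 100 counts, 14 had a lower log2 fold. *Rpl39* did not share this pattern, with 5281 and 5290 counts (1.03-fold, interval 0.987 to 1.07). *Rpl39l* therefore made up 0.0189% of the counts of the pair in chondrocytes (4.79e-04% to 0.105%) and 6.5% in dermal fibroblasts (5.88% to 7.18%). None of the 82 windows of 75 bases in the *Rpl39l* coding sequence had an exact copy elsewhere in the genome. Of the *Rpl39* windows, 48.8% had one. Of the 8 keratinocyte markers with enough counts, 7 were over 1.5-fold higher in the dermal fibroblast library (*Krt5* had 1 and 1693 counts, *Krt14* 17 and 1939). So were 5 of 5 endothelial markers, against 21.8% of all genes. The part of keratinocytes and endothelial cells in the *Rpl39l* count was not tested.

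The other paralogs had small differences. *Rps27l*, a p53 target and paralog of *Rps27*, had 2207 chondrocyte and 1657 fibroblast counts, a fold of 1.37 (1.28 to 1.46). *Rpl7l1*, which acts in early 60S assembly, had 2206 and 1661 counts, a fold of 1.36 (1.28 to 1.45), and took 10.1% (9.75% to 10.6%) and 8.51% (8.12% to 8.91%) of the counts of the pair with *Rpl7*. *Rpl22l1* had 1154 and 937 counts (1.26-fold) and took 20% (18.9% to 21%) and 17.7% (16.7% to 18.8%) of the pair with *Rpl22*. *Rpl36al* had 3187 and 2601 counts (1.26-fold) and took 33.2% (32.2% to 34.1%) and 31.9% (30.9% to 33%) of the pair with *Rpl36a*, with overlapping intervals. Exact copies elsewhere cover unequal parts of the genes of a pair, such as 71.5% of the *Rpl22l1* and 8.95% of the *Rpl22* windows. How reads with several matches were counted is not given, and the intervals of these shares do not cover it. *Rps4l*, a paralog of *Rps4x*, went the other way with 530 and 649 counts, a fold of 0.839 (0.746 to 0.942). *Rps19bp1*, which encodes a protein that binds RPS19 and is no ribosomal protein, had 355 and 373 counts (0.978-fold, 0.843 to 1.13). *Rpl37rt* was the member just inside the count filter, with 146 and 136 counts.

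The 7 members under the filter are not compared. *Rpl10l* and *Rps27rt* had 0 counts in both libraries, and *Rpl3l*, the paralog of *Rpl3* found in striated muscle, had 5 chondrocyte and 0 fibroblast counts. A count of 0 allows up to 3 counts in a library. The other 4 are core genes whose proteins every ribosome holds. *Rpl26* had 0 counts in both libraries, *Rpl30* had 8 and 10 counts, *Rpl34* had 9 and 12 counts, and *Rps27*, just outside the filter, had 17 and 16 counts. These values are over 100-fold under the lowest of the other core members (3817 counts), and they were alike in both libraries. Exact copies elsewhere in the genome were found for 75.5% of the 75 base windows of the *Rpl26* coding sequence, for 72.6% of *Rpl30*, 60% of *Rpl34* and 100% of *Rps27*. But 100% of the windows of *Rps12* and *Rps6* had such a copy too, at 18420 and 18383 chondrocyte counts, and so had over 70% of the windows of 48 of the 71 core members. The part of copies in the low counts was not tested, and how reads with several matches were counted is not given in the sources used here. The low values are therefore read as values of the table and not as levels of the mRNAs.

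The genes that build ribosomes differed more between the cell types than the genes of the ribosome itself. The rRNA processing and assembly factors, which cut, modify and fold the rRNA in the nucleolus, had a median log2 fold of 0.48 over 29 genes. A fold above 1 was found for 28 of them, against 50.2% of all genes. Of the 29, 11 were over 1.5-fold higher in chondrocytes, against 16.9% of all genes, and 0 were over 1.5-fold higher in dermal fibroblasts, against 21.8%. Over 2-fold higher in chondrocytes were 3 of the 29, close to the share of all genes (1035 of 11811). *Ltv1*, an assembly factor of the 40S, had 2187 chondrocyte and 660 fibroblast counts (3.40-fold, 3.12 to 3.72). *Dkc1*, the pseudouridine synthase, had 1438 and 588 counts (2.51-fold, 2.28 to 2.77), and *Nop10*, its partner in the same particle, had 759 and 374 counts (2.08-fold, 1.84 to 2.37).

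The most abundant rRNA processing genes were nucleolin and the core proteins of box C/D particles. *Ncl* had 15811 and 9579 counts (1.70-fold), *Nop58* 3141 and 1747 (1.85-fold) and *Nop56* 2696 and 1989 (1.39-fold). The summed counts of the list had a log2 fold of 0.599 (0.580 to 0.618), against 0.142 for the ribosomal proteins. With total counts the median of the list was 0.34 and that of the core ribosomal proteins lay at 0.

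Genes of RNA polymerase I and its cofactors, which transcribe rRNA, had a median log2 fold of 0.32 over 20 genes, with 2 over 1.5-fold higher in chondrocytes, no larger a share than the 16.9% of all genes. *Ubtf* had 2952 and 2631 counts (1.15-fold), *Polr1a* 1678 and 1324 (1.30-fold) and *Rrn3* 1396 and 1041 (1.38-fold). Initiation, elongation and release factors outside the TOP class had a median of 0.33 over 25 genes. A fold above 1 was found for 24 of the 25, against 50.2% of all genes. None was beyond 1.5-fold, against 16.9% of all genes higher in chondrocytes and 21.8% higher in dermal fibroblasts. *Eif4g2* had 25529 and 17988 counts (1.46-fold), *Eif4a1* 16902 and 13867 (1.25-fold) and *Eif5a* 14936 and 12123 (1.27-fold).

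The other TOP mRNAs were close to the ribosomal proteins, with a median of 0.13 over 18 genes. *Eef1a1*, the most abundant of them, had 188042 and 177745 counts (1.09-fold), *Eef2* had 62295 and 62125 (1.03-fold), and *Vim* had 41665 and 54121 (0.791-fold). In this list, 2 of 18 genes were over 1.5-fold higher in chondrocytes, no larger a share than the 16.9% of all genes. They were *Npm1* with 19049 and 11537 counts (1.70-fold) and *Hnrnpa1* with 260 and 173 (1.54-fold), both named after their values were seen. Among ribosomal proteins whose symbols do not match the rule, *Fau* had a fold of 1.12 and *Gnb2l1* a fold of 0.99. Mitochondrial ribosomal proteins, which translate the mitochondrial genome, had a median of 0.17 over 77 genes. Their SD was 0.26, against 0.12 for the core cytosolic members. Of these 77, 4 were over 1.5-fold higher in chondrocytes, a smaller share than the 16.9% of all genes.

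**Figure D4:**
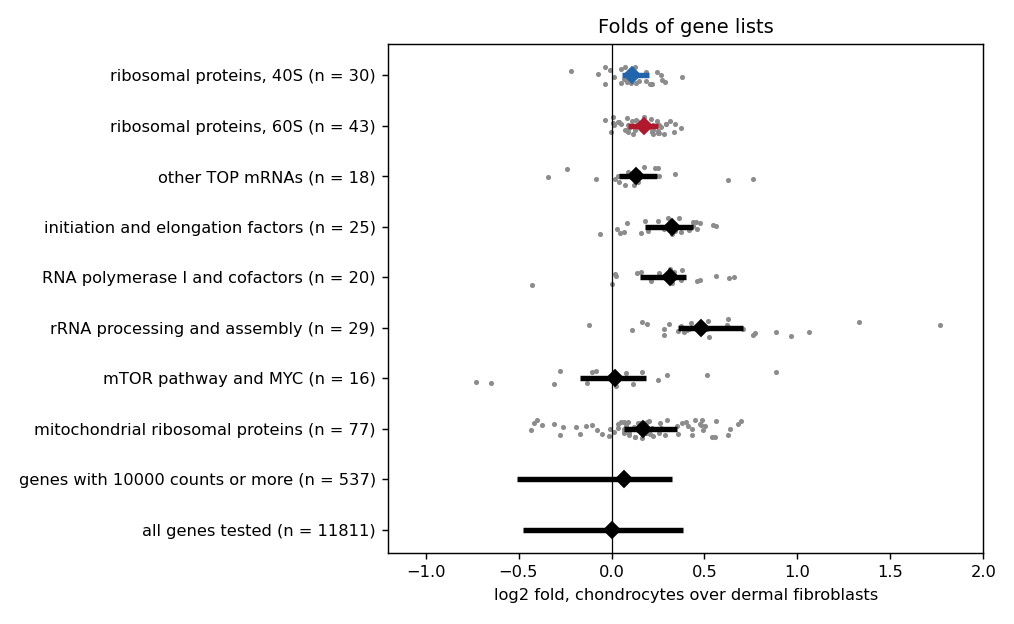
Log2 fold (x axis; chondrocytes over dermal fibroblasts) of gene lists with at least 100 counts per gene; diamonds are medians, bars run from the lower to the upper quartile, and grey points are single genes, drawn for lists of up to 77 genes. Both ribosomal protein subunits and the other TOP mRNAs have medians from 0.11 to 0.17 with narrow bars, rRNA processing and assembly factors have a median of 0.48, and all 11811 genes have a median of 0.00 with a wide bar.

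The regulators of ribosome production did not move together. Genes of the mTOR pathway and MYC network had a median log2 fold of 0.02 over 16 genes. Of these, 9 had a fold above 1, against 50.2% of all genes, and 7 a fold below 1. *Akt1* had 6388 and 6211 counts (1.06-fold), *Larp1*, which binds TOP mRNAs, had 4727 and 4336 (1.12-fold), and *Eif4ebp1* had 3632 and 3137 (1.19-fold). The genes beyond 1.5-fold, named after their values were seen, were *Myc* with 1945 and 1083 counts (1.84-fold), *Tsc1*, an inhibitor of the pathway, with 646 and 1100 (0.603-fold), and *Rictor* with 476 and 767 (0.637-fold). Markers of cycling cells were higher in chondrocytes for all 10 genes, against 50.2% of all genes with enough counts. Of the 10, 9 were over 1.5-fold higher, against 16.9%. The 10 had a median log2 fold of 0.94 and summed levels of 1380 and 733 scaled CPM. The part of cycling cells in the values of the rRNA processing list was not tested.

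A matching tract at an annotated start went with no large difference in fold. The search matched only 43.3% of the core members' starts, although most ribosomal protein mRNAs are TOP mRNAs. A gene counted as with a tract if any of its starts matched. Genes without a match can therefore be TOP mRNAs, and the groups do not separate TOP mRNAs from others. The 25 core members with a tract and enough counts had a median log2 fold of 0.09 (-0.01 to 0.32), and the 29 without one had a median of 0.13 (-0.22 to 0.38). *Rpl38* and *Rplp2*, both with a tract shown above, lay near the upper and the lower end of this range.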

How the data were processed

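The authors prepared stranded mRNA libraries, sequenced 75 bp single-end reads and mapped them to mm10, and deposited raw read counts per gene symbol, without normalization. The submitters' processing notes name CASAVA 1.8.2, TopHat2 2.0.13, Bowtie2 2.2.3 and SAMtools 0.1.19. The counting program, its annotation, strand setting and handling of reads with several matches are not given in the sources used here. The 18788599 and 17563724 counts were scaled with TMM factors (edgeR 4.0.16, R 4.3.3). Counts under 3 were set to 3, and genes needed 100 counts over both libraries. Intervals are 95% Clopper-Pearson intervals (scipy 1.17.1), or a normal approximation on the log scale for the ratio of subunit ratios, and reflect counting error alone, as PCR copies of a molecule could not be told from separate molecules. The code was tested on simulated counts. Coding lengths and exact copies of 75 base windows came from GENCODE vM1 and NCBIM37 (blastn 2.17.0), and positions from RefSeq on GRCm38.p6.

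The members and lists were chosen with earlier results of these data known. *Rpl37rt* was put among the members outside the core after its values were seen. Members were named for abundance (3 per subunit), fold (5 highest and 5 lowest per subunit), nearness to the filter, or a role list, and genes of other lists for abundance (3 per list) or a fold over 2. Alternatives were 6 scalings, other filters, floors and thresholds, and other sets of rows. Values of a few genes that this rule names are not reported here.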

Additional observations from a re-analysis of the deposited data

How the results depend on the processing

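The log2 fold of the summed counts of all members, 0.142 with TMM factors, was 0.006 with total counts and with total counts without the members themselves, 0.121 with DESeq2 size factors (DESeq2 1.42.0), 0.175 with the upper quartile, 0.188 without the 10 most abundant genes and 0.264 with *Actb*. In that order the small subunit sum was -0.017, -0.017, 0.098, 0.152, 0.165 and 0.241, and the large subunit sum 0.022, 0.023, 0.138, 0.191, 0.204 and 0.281. The median over members was 0.102 for the small and 0.177 for the large subunit. A scaling moves all genes by 1 constant, so the direction of the small subunit sum depends on it, and the distance between the subunits does not. The ratio of small to large subunit counts became 1.036 without the most abundant member of each. The number of members over 1.5-fold higher in dermal fibroblasts was 1 under every alternative except core members only, where it was 0, and the number in chondrocytes was 0 except with no filter, where it was 1 (*Rpl3l*, at 5 and 0 counts). Members with a fold above 1 numbered 41 with total counts, with and without the members themselves, and 67 to 78 under the other scalings, and members within 1.2-fold numbered 54 to 76, or 40 with *Actb* (alternatives chosen after seeing the data). Of 34 named members, 10 changed sign with total counts (with and without the members themselves), 6 with *Actb*, 5 without the 10 most abundant genes, 3 with DESeq2 size factors, 2 with the upper quartile and 0 with a pseudocount of 1. No paired analysis was possible because only 1 library stood on each side. Counting intervals do not cover differences between animals or cultures.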
